A study of Mus musculus with 24 samples.

Results

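The regions described here are the MIR and L2 copies of the mouse genome, read in the nascent RNA of embryonic stem cells that carry 1 of 3 Alkbh5 genotypes. They were taken from a table of 4929385 repeat loci as the lines named SINE/MIR or LINE/L2, which gave 37064 loci. Of these, 23841 had a value other than 0 in at least 1 column of the table, and they are the members of this account: 16495 of 25824 MIR loci (63.9%) and 7346 of 11240 L2 loci (65.4%). Over all repeat loci, 2172946 (44.1%) had such a value.

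MIR elements are short interspersed repeats derived from a transfer RNA, and L2 elements are long interspersed repeats that once encoded their own copying machinery. The ends of the MIR elements resemble those of L2, and MIR copies are thought to have been spread by the L2 machinery. Both families spread before the orders of placental mammals separated, no longer move, and are now worn fragments spread through introns and between genes. RNA read from such a copy is mostly part of a longer transcript that runs through it.

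The cells were E14TG2a, a male mouse embryonic stem cell line, grown in serum medium with LIF and with PD0325901 and CHIR99021, which inhibit MEK and GSK3. The groups were Alkbh5-/- cells (KO), cells labelled Alkbh5 del-cIDR (dcIDR) and WT cells, each given 1 mM EU, a uridine analog taken up into new RNA, for 10, 20, 40 or 60 min. Alkbh5 encodes an enzyme that removes the methyl group of N6-methyladenosine in RNA. Each of the 12 groups had 2 libraries, 24 in all, and RNA of EU-labelled Drosophila cells was added to every sample before the labelled RNA was captured. How many clones stand behind a genotype, and whether the replicates of a group were separate cultures, is not given in the sources used here, so the p-values measure the spread between these libraries.

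The deposited values are log2 ratios to the 10 min libraries of the same genotype, and the reads behind them were recovered. The spike-in scaled sum of each group was recovered for every locus and gene, but its split into whole reads of both libraries stayed unclear for 155 repeat loci, none of them a MIR or L2 copy, and for 2825 genes, where it was shared out by the libraries' median ratio. Libraries held 3654850 to 22124374 reads on repeats, 3128897 to 22162905 on genes, 6037 to 23382 on the spike-in and 40852 to 255023 on MIR and L2 copies. The shallowest libraries for repeat reads were both dcIDR libraries at 10 min, with 4289454 and 3654850, followed by WT library B at 10 min, with 4426747. Alkbh5 (ENSMUSG00000042650) had 340 to 1989 reads in KO libraries, 242 to 2269 in dcIDR libraries and 361 to 3206 in WT libraries, where the split at 60 min was unclear. These are reads over the whole gene and check neither deletion. The summed level of 10 stem cell markers ranged from 24074 to 99703 in KO, 11695 to 102741 in dcIDR and 15894 to 97939 in WT libraries, as reads per fixed number of spike-in reads. The other cell types' summed levels were far lower: at most 81.5 for 5 fibroblast, 165 for 4 endoderm and 193 for 3 trophoblast markers. The 3 neural markers summed to 142 to 750 in KO, 48.3 to 369 in dcIDR and 76.6 to 394 in WT libraries, with medians of 350, 251 and 172, and their part in the results was not tested. Postn, Cdx2 and Neurog2 had a median of 0 over the libraries.

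The copies are short. MIR loci had a median length of 107 bases, with quartiles of 77 and 143 and a maximum of 275. L2 loci had a median of 121 bases, with quartiles of 81 and 190 and a maximum of 1421. Loci with reads and loci at 0 were of like length, with medians of 112 and 108 bases. The share of loci with reads ran from 55.4% on chromosome X to 70.0% on chromosome 7 among the chromosomes other than Y, where 3 of 16 loci had reads.

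Reads were spread unevenly over the members. Over all 24 libraries MIR and L2 copies held 3856226 reads, 2053943 on MIR and 1802283 on L2. A member had a median of 21 reads, with quartiles of 4 and 118 and a maximum of 20821, and 9419 of them had 10 reads or fewer. At the edge of the rule, 1813 loci had 1 read in all and 2320 had 2, against 13223 loci (35.7%) at 0. Reads were found in all 24 libraries for 3506 members (14.7%) and in 1 library for 3765. The 761 members with over 1000 reads held 43.1% of all member reads, and the 100 with most held 14.7%.

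Per length, MIR and L2 copies were read more often than the younger long families. Their level, in reads per kilobase summed over all loci of a family and scaled to a common 11714 spike-in reads per library, was 30.5 for MIR and 44.7 for L2, against 13.1 for all repeats. The mouse short repeats gave 28.9 for SINE/Alu, 36.4 for B2 and 27.9 for B4. The younger L1 and the ERVK retroviruses gave 5.97 and 8.22, the MaLR elements 13.3, and the old DNA transposons hAT-Charlie and TcMar-Tigger 21.6 and 20.2. The old LINE family CR1 gave 18.2. These are descriptions of the families' totals. The copies also differ in length, with medians of 107 bases for MIR and 121 for L2, against 326 for L1 and 246 for ERVK. How reads that overlap only part of a copy were counted is not given, and it bears most on short copies. The part of length in these values was not tested. How multiply mapping reads were handled is not given in the sources used here, and it bears on young families with near-identical copies.

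The 5 L2 loci with most reads each held 10321 to 20821 reads over the 24 libraries, and the 5 such MIR loci 6127 to 10733. The most-read member was the L2 locus chr16:84590696-84590994 (GRCm39), 299 bases long. In reads per 1000000 repeat reads (RPM) it had a lowest, median and highest library of 35.1, 47.1 and 65.7 in KO cells, 44.6, 62.9 and 83.3 in dcIDR cells and 43.4, 62.0 and 74.2 in WT cells. KO libraries were below both WT libraries at each of the 4 labelling times. KO minus WT was -0.35 ± 0.05 on the log2 scale (SE, limma adjusted p = 5.04e-05), and dcIDR minus WT was 0.02 ± 0.05 (limma adjusted p = 0.909).

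The next L2 locus by reads, chr7:128054429-128055010, had 39.2 to 83.9 RPM in KO, 35.8 to 77.2 in dcIDR and 35.6 to 70.2 in WT libraries, and the groups overlapped. Its slope with labelling time was 0.39 ± 0.02 per doubling of minutes relative to the median locus (limma adjusted p = 2.77e-13). The most-read MIR locus was chr4:119140680-119140789, with 17.8 to 33.5 RPM in KO, 16.7 to 43.9 in dcIDR and 22.2 to 42.5 in WT libraries. KO minus WT was -0.40 ± 0.07 there (limma adjusted p = 0.000462). The MIR locus chr11:50215575-50215685 went the other way, with 29.7 to 49.0 RPM in KO libraries against 19.4 to 29.1 in WT libraries, which did not overlap, and KO minus WT of 0.58 ± 0.09 (limma adjusted p = 9.1e-05). The MIR locus chr8:43638988-43639187 differed in both genotypes and in opposite directions: KO minus WT was 0.34 ± 0.09 (limma adjusted p = 0.0177) and dcIDR minus WT was -0.42 ± 0.09 (limma adjusted p = 0.00505).

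The first question was whether the copies as a whole took another share of nascent RNA in the mutants. MIR and L2 reads made up between 1.05 and 1.21% of repeat reads in every library. The group means at 10, 20, 40 and 60 min were 1.12, 1.13, 1.15 and 1.12% in KO, 1.08, 1.19, 1.16 and 1.12% in dcIDR and 1.10, 1.14, 1.13 and 1.09% in WT cells. Averaged over the 4 times, the share differed by 0.019 on the log2 scale between KO and WT and by 0.027 between dcIDR and WT. Neither passed (exact two-sided permutation test with genotypes shuffled inside each labelling time, p adjusted over 3 pairs = 0.262 for both). dcIDR minus KO was 0.0082 (adjusted exact p = 0.676). The smallest p this design allows is 0.0015.

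Per spike-in read, which measures the amount of labelled RNA against the added Drosophila RNA, the values spread far more. KO cells had 8.19 ± 1.10, 10.8 ± 1.76, 17.1 ± 1.64 and 22.8 ± 1.89 MIR and L2 reads per spike-in read at 10, 20, 40 and 60 min (SD, n = 2 each). dcIDR cells had 3.11 ± 0.41, 15.8 ± 5.39, 23.8 ± 4.86 and 19.8 ± 3.87, and WT cells 4.98 ± 1.09, 8.80 ± 0.10, 18.0 ± 5.85 and 18.5 ± 4.26. The KO minus WT difference was 0.73, 0.28, -0.034 and 0.32 on the log2 scale at the 4 times, 0.32 on average (exact two-sided permutation p = 0.0432, adjusted over 3 pairs 0.130). It did not pass with all libraries, and passed without WT library B at 40 min, where it was 0.41 (adjusted exact p = 0.00926). The dcIDR minus WT difference changed sign between times, -0.67 at 10 min and 0.80, 0.43 and 0.11 afterwards, and averaged 0.17 (adjusted exact p = 0.522).

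The balance between both families was close to even. MIR reads per L2 read ran from 1.01 to 1.23 over the libraries, with group means of 1.08 to 1.20. KO minus WT was 0.011 on the log2 scale, dcIDR minus WT 0.017 and dcIDR minus KO 0.0054, and none passed (adjusted exact permutation p = 0.887 for each).

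Against genes, MIR and L2 reads became scarcer with longer labelling. Per 1000 reads of the gene table there were 12.9 ± 0.18, 12.4 ± 0.77, 11.5 ± 0.06 and 10.5 ± 0.27 at 10, 20, 40 and 60 min in KO cells (SD, n = 2 each). dcIDR cells had 12.1 ± 1.29, 13.3 ± 0.36, 12.2 ± 0.32 and 10.4 ± 0.24, and WT cells 12.9 ± 0.35, 12.4 ± 0.61, 11.2 ± 0.33 and 10.1 ± 0.30. At 60 min all 6 libraries lay below all libraries of the earlier times. The slope was -0.107 on the log2 scale per doubling of minutes, with -0.110 in KO, -0.078 in dcIDR and -0.134 in WT (permutation of times within genotype, 100000 resamples, p adjusted over 3 trends = 0.00024). All repeat reads together gave -0.113, and the families set beside MIR and L2 gave -0.126 for L1 to -0.067 for TcMar-Tigger, so the decline was one of repeat reads at large. Reads of the gene table and of the repeat table may be the same reads where a repeat lies in a gene.

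Within repeat reads, the MIR and L2 share had a slope of 0.0057 per doubling (permutation p = 0.567). Leaving out the 10 min libraries turned it to -0.034 (permutation p = 0.0056), as the share was highest at 20 or 40 min in each genotype.

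**Figure D1:**
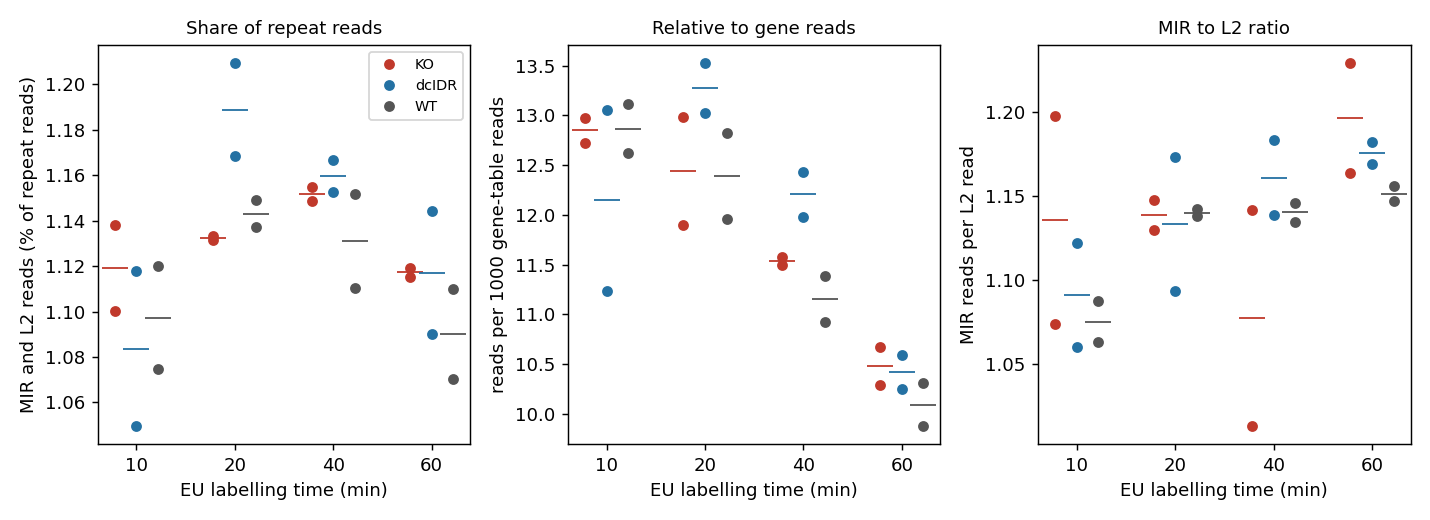
Each point is 1 library and each short line the mean of 2, by EU labelling time (min) and genotype: MIR and L2 reads as a percentage of repeat reads, per 1000 gene-table reads, and MIR reads per L2 read. The axes do not start at 0. The share stays between 1.05 and 1.21% and the genotypes overlap, while the reads per 1000 gene-table reads are lowest at 60 min in all 3 genotypes.

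Single loci were tested next, to ask which copies differed between genotypes. Of the members, 3771 (2286 MIR and 1485 L2) passed the filter of a mean level of at least 10 and reads in at least 6 libraries, and they held 80.0% of member reads. Their median level was 21.8, close to the 21.95 of all 306027 repeat loci tested, with 19.5 for MIR and 25.8 for L2. The level is reads scaled to 11714 spike-in reads. limma was fitted to log2(level + 1) of all 306027 loci, with each library set to its median locus, so a difference is relative to the typical repeat locus. It understates the change of loci with few reads. Loci that lie in 1 transcript are not independent of each other.

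In KO against WT, 104 members were higher and 147 lower (limma, adjusted p under 0.05), which is 6.66% of the members tested. The higher ones were 66 without KO library B and 68 without WT library A at 60 min. Among all repeat loci tested 6.83% were called, 2.72% higher and 4.12% lower, so the members' share lay at the background. The median difference was -0.033, the same as that of all loci at this precision. A larger part of the L2 loci tested was called, 8.01% against 5.77% of the MIR loci, and this difference was not tested. L2 loci had the higher levels. Of members with a level of 50 or more 13.6% were called, against 14.8% of all loci at that level.

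On the spike-in scale, without setting each library to its median locus, the median of all loci moved up to 0.29 and the split of the calls turned. There 318 of 3771 members were higher and 29 lower, against 8.9% and 1.11% of all loci. Which copies are called higher or lower in KO cells therefore holds relative to the typical locus.

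The member lowest in KO cells by the naming rule was the L2 locus chr10:125812551-125812682, of 132 bases. Over the 4 times its RPM in KO libraries was 4.64 and 3.60, then 5.98 and 10.4, 6.20 and 5.63, and 4.83 and 4.20. In dcIDR libraries it was 5.60 and 8.21, then 13.5 and 14.5, 12.7 and 12.8, and 13.97 and 13.9. In WT libraries it was 14.7 and 15.8, then 13.3 and 13.8, 13.2 and 12.99, and 11.01 and 11.3. All 8 KO libraries were below all 8 WT libraries, and dcIDR was low only at 10 min.

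KO minus WT at this L2 locus of chromosome 10 was -1.29 ± 0.11 on the log2 scale (SE, limma adjusted p = 1.6e-09), and dcIDR minus KO was 1.07 (limma adjusted p = 3.33e-08). The authors' deposited table, which compares each genotype with its own 10 min libraries, lists 1.43, 1.55 and 1.63 for KO at 20, 40 and 60 min, 3.22, 3.70 and 3.63 for dcIDR and 0.60, 1.59 and 1.46 for WT. Those ratios to 10 min carry no difference in the 10 min level itself. The other 4 members lowest in KO by the rule included the L2 loci chr9:36953365-36954066 (-0.999), chr1:39507606-39507715 (-0.98) and chr2:135493721-135493824 (-0.93). The MIR locus chr15:81837261-81837347 (-0.95) was also among them. Their limma adjusted p was 2.17e-06 to 0.00116. Called members outside the rule went lower, down to -2.25 at chr2:115704468-115797364.

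The L2 locus chr9:36953365-36954066 had 1.03 to 3.26 RPM in KO libraries, 4.45 to 9.58 in dcIDR libraries and 3.70 to 5.18 in WT libraries. KO did not overlap with either of the others. It also had the largest positive dcIDR minus KO difference under the naming rule, 1.39 (limma adjusted p = 1.06e-06).

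Of the 5 members highest in KO cells by the rule, 3 lay on chromosome 6 and 2 on chromosome 11. The L2 locus chr6:11944738-11945010 had a lowest, median and highest library of 3.08, 5.13 and 6.24 RPM in KO, 1.40, 2.90 and 4.65 in dcIDR and 1.42, 2.20 and 3.91 in WT cells, with some overlap. KO minus WT was 0.89 ± 0.21 (limma adjusted p = 0.00584). The L2 loci chr6:30492929-30493064 and chr6:83482239-83482700 had 0.87 and 0.69, and the MIR loci chr11:20495134-20495213 and chr11:49104312-49104473 had 0.82 and 0.70 (limma adjusted p = 0.000515 to 0.0105). The call of chr11:49104312-49104473 was lost without the 10 min libraries, where the difference was 0.46 (limma adjusted p = 0.0731).

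In dcIDR against WT, 59 members were higher and 95 lower, 4.08% of those tested, against 3.62% of all repeat loci (1.02% higher and 2.6% lower). Over both directions the share lay near the background. By direction 1.56% of the members were higher, above the share of all loci, and 2.52% were lower, near it. Of the 59 higher members, 26 lay on chromosome X. The median difference was -0.0019, against -0.015 for all loci. Of the MIR loci tested 3.15% were called and of the L2 loci 5.52%. The count of higher loci was not stable: it was 111 without the 10 min libraries and ran from 35 to 104 when single libraries were left out. On the spike-in scale 50 of 3771 members were higher and 15 lower, against 0.781% and 0.68% of all loci, with the median of all loci at 0.14. By these counts members were called higher more often and lower less often than all loci, which was not tested. The median of members on that scale was 0.16. Leaving out single libraries gave 51 to 145 lower members.

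The member lowest in dcIDR cells by the naming rule was the L2 locus chr16:9179825-9179914, of 90 bases. It had 1.17 and 1.92 RPM in dcIDR libraries at 10 min, then 1.06 and 1.06, 1.04 and 1.04, and 0.88 and 0.80. WT libraries had 2.66 and 2.71, then 3.06 and 3.45, 4.10 and 4.93, and 4.69 and 4.19. All dcIDR libraries lay below all WT libraries, and the gap was wider at 40 and 60 min than at 10 min. dcIDR minus WT was -1.68 ± 0.18 (SE, limma adjusted p = 1.2e-07), while KO minus WT was 0.33 ± 0.18 (limma adjusted p = 0.307) with KO libraries between 1.71 and 8.89.

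The other 4 members lowest in dcIDR by the rule were MIR loci: chr2:173111750-173111910 (-0.88), chr2:156283970-156284100 (-0.86), chr7:27208417-27208559 (-0.78) and chr6:86524462-86524576 (-0.77). Their limma adjusted p was 7.57e-05 to 0.0106. None of the 4 passed on the spike-in scale, where they had -0.72, -0.70, -0.62 and -0.61 (limma adjusted p = 0.0565, 0.0573, 0.140 and 0.111). For chr6:86524462-86524576 the difference was -0.22 without the 10 min libraries (limma adjusted p = 0.316), and for chr7:27208417-27208559 it was -0.68 without WT library B at 20 min (limma adjusted p = 0.0502).

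Of the 5 members highest in dcIDR cells by the naming rule, 3 lay on chromosome X. The best read of them was the MIR locus chrX:149831292-149831526, with 23.8 and 23.3 RPM in dcIDR libraries at 10 min, then 26.3 and 29.3, 24.6 and 26.3, and 22.6 and 24.04. KO libraries had 7.92 to 15.2 and WT libraries 9.39 to 17.1. All dcIDR libraries lay above all libraries of both other genotypes. dcIDR minus WT was 1.04 ± 0.09 (SE, limma adjusted p = 6.89e-09) and KO minus WT was -0.13 ± 0.09 (limma adjusted p = 0.503).

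The L2 locus chrX:150691204-150691325 had the largest difference of these, 1.06 ± 0.16 (limma adjusted p = 9.36e-05), with 3.83 to 8.17 RPM in dcIDR libraries and 0.904 to 4.80 in WT libraries, which overlapped. The MIR locus chrX:158344301-158344396 had 0.92, the L2 locus chr9:59454437-59454541 had 1.04 and the L2 locus chr3:89958110-89958222 had 0.74, with limma adjusted p of 0.000186 to 0.00898.

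dcIDR and KO were further from each other than either was from WT by count. There, 291 members were higher and 303 lower in dcIDR, 15.8% of those tested, against 14.7% of all repeat loci (6.83% higher and 7.86% lower). These calls share their libraries with both comparisons above. On the spike-in scale the split of 3771 members was 108 higher and 334 lower, against 2.42% and 8.67% of all loci. The lowest by the rule after chr16:9179825-9179914 (-2.01) was the L2 locus chr11:20551317-20551640 (-1.26, limma adjusted p = 5.75e-09). It had 3.69 to 7.66 RPM in dcIDR libraries and 10.97 to 13.3 in KO libraries, with WT in between at 5.19 to 9.55. It differed from WT in both genotypes, by 0.81 in KO (limma adjusted p = 3.95e-05) and by -0.45 in dcIDR (limma adjusted p = 0.0335).

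**Figure D2:**
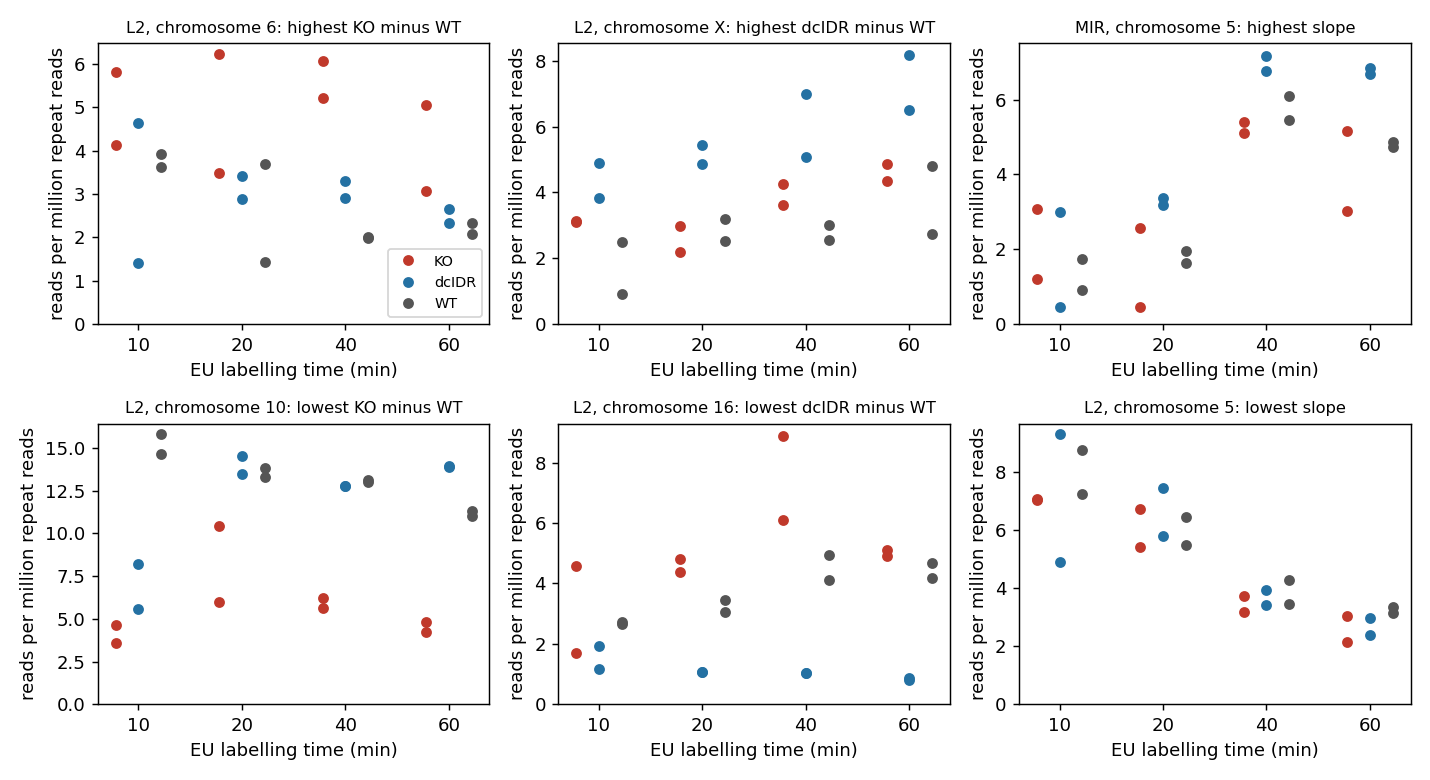
RPM in every library (points) by EU labelling time (min) and genotype for 6 members: those with the highest and lowest KO minus WT difference, dcIDR minus WT difference and slope with time under the naming rule. KO libraries lie below WT at the L2 locus of chromosome 10, with medians of 5.23 in KO and 13.2 in WT cells, and dcIDR libraries lie below WT at the L2 locus of chromosome 16, with medians of 1.05 in dcIDR and 3.78 in WT cells.

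**Figure D3:**
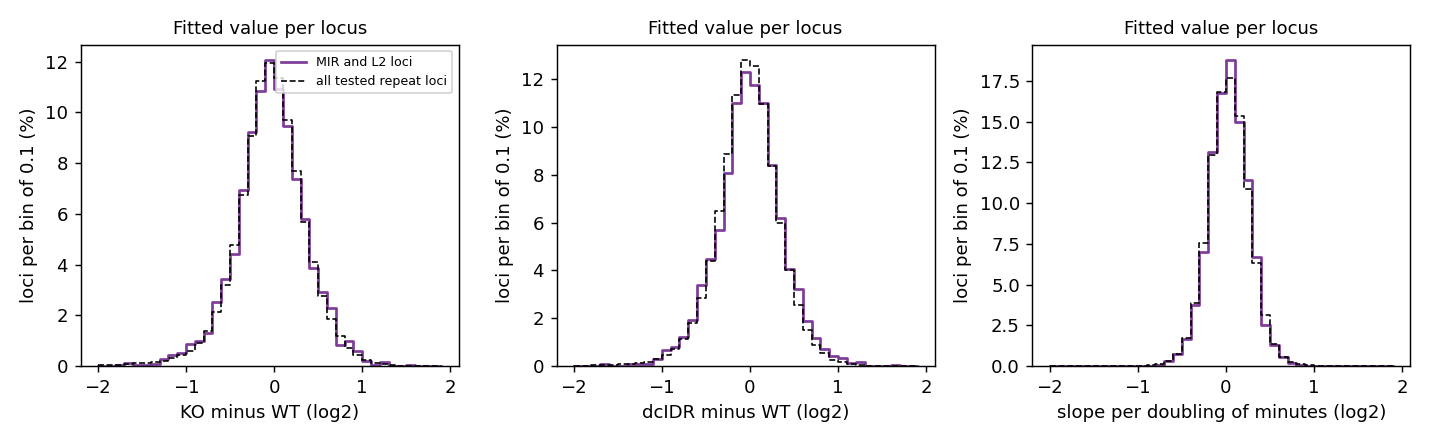
Share of loci (%) in bins of 0.1 of the fitted log2 value for the 3771 MIR and L2 loci tested (solid line) and all 306027 repeat loci tested (dashed line): KO minus WT, dcIDR minus WT and the slope per doubling of minutes. The lines nearly coincide, with medians of -0.033 for both in KO minus WT, -0.0019 for members and -0.015 for all loci in dcIDR minus WT, and 0.032 for both in the slope.

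The differences of MIR and L2 copies were shared with their surroundings. Each locus was set beside the summed reads of all repeats of other families within 25 kb, a median of 105 loci, for the 3763 members whose surroundings had a level of at least 50. The correlation across loci between the member and its surroundings was r = 0.72 for KO minus WT, 0.68 for dcIDR minus WT and 0.81 for dcIDR minus KO. Members and surroundings share the libraries and may share a transcript, and no p is given. Among called members the surroundings had the same sign for 102 of 103 higher and 144 of 146 lower in KO against WT, and for 58 of 59 higher and 94 of 95 lower in dcIDR against WT.

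The surroundings moved by less than the called members. For members higher in KO cells the median was 0.80 and that of their surroundings 0.52, and for lower members -0.91 and -0.55. In dcIDR the medians were 0.88 and 0.48 for higher members and -0.85 and -0.47 for lower members. Members were called on their own differences, so a smaller value in sums that were not selected is built into this contrast. Of the 10 loci named for KO minus WT, 8 had surroundings of smaller and 2 of larger difference, and of the 10 for dcIDR minus WT all 10 had smaller ones. The L2 locus chr10:125812551-125812682 had -1.29 and its surroundings -1.15 in KO minus WT, and the L2 locus chr16:9179825-9179914 had -1.68 and its surroundings -1.28 in dcIDR minus WT. The L2 locus chr9:36953365-36954066 went the other way in KO minus WT, with -0.999 and surroundings of -1.03, as did the MIR locus chr11:20495134-20495213, with 0.82 and 0.91.

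Some called members lay near each other. In KO against WT 75 of the 251 called members (29.9%) had another called member within 100 kb, against 7.22% of the members not called. Of the 75, 73 had the direction of every called neighbour. In dcIDR against WT these were 49 of 154 (31.8%, against 4.53%), all 49 of one direction with their neighbours, and in dcIDR against KO 248 of 594 (41.8%, against 12.3%) and 244. Most called members had no called neighbour, and neighbours may share a transcript, so no test was made. The longest run for dcIDR against WT was at chrX:149831292-149966849, where 10 members were tested in 136 kb, 6 MIR and 4 L2. All 10 had a positive dcIDR minus WT difference, 0.56 to 1.04, and 8 passed, while KO minus WT ran from -0.42 to 0.25 with 1 lower.

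For KO against WT, 4 members at chr2:115704468-115797364 were lower, by -0.73 to -2.25, while dcIDR minus WT ran from -0.42 to 0.45 there and passed in none. An equally long run at chr18:42190432-42342628 was mixed, with 3 lower and 1 higher member at -1.68 to 0.89. Another 4 at chr6:113390531-113553365 were higher, with a median of 1.11. At chr6:91667643-91711403, 8 of 8 members were lower in dcIDR than in KO, by -0.61 to -1.28. At that place KO minus WT was 0.29 to 0.84 and dcIDR minus WT -0.50 to -0.20.

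Differences between chromosomes were part of both comparisons. In KO minus WT the median over members was 0.39 on chromosome 6, with 43 of 253 higher and 1 lower, and 0.28 on chromosome 8, with 13 of 138 higher and 1 lower. All repeat loci of these chromosomes had 0.37 and 0.29. On chromosome 6, 17.0% of members and 17.0% of all loci were higher, and 0.40% and 1.13% lower. On chromosome 8, 9.42% and 9.69% were higher, and 0.72% and 0.91% lower, so the members' higher shares lay at the background of each chromosome. Between 13 and 57 Mb of chromosome 11, 12 of 59 members (20.3%) were higher and none lower, with a median of 0.41. Of all 6255 repeat loci tested there 23.997% were higher, with a median of 0.45. That stretch was drawn with earlier results of these data known. The medians of all other chromosomes ran from -0.13 to 0.026. Outside chromosomes 6, 8 and X and that stretch, 33 of 3148 members (1.05%) were higher and 142 (4.51%) lower, against 0.759% and 4.62% of all repeat loci there.

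In dcIDR minus WT chromosome X had a median of 0.33 over 173 members, with 26 higher and none lower, and 0.20 over all its repeat loci. The higher members were 15.0% of those tested there, against 9.22% of all its repeat loci, of which 1.53% were lower. The run at chrX:149831292-149966849 held 8 of the 26, and neighbours may share a transcript. Chromosomes 6 and 8 were on the other side, with medians of -0.12 and -0.19 and 17 and 8 members lower, against 1 and 0 higher. The lower members were 6.72% and 5.80%, against 4.51% and 5.43% of all repeat loci there. Of all loci there 0.45% and 0.38% were higher. Refitting without chromosomes 4, 6, 8, 11 and X left 31 higher and 68 lower members in KO against WT and 24 higher and 32 lower in dcIDR against WT, with fewer loci tested. The number tested and the share of all loci called in that refit are not given here. The smaller counts can therefore not be told apart from the smaller set of loci. Whole chromosomes that differ cannot be told apart here from differences of the single copies on them.

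**Figure D4:**
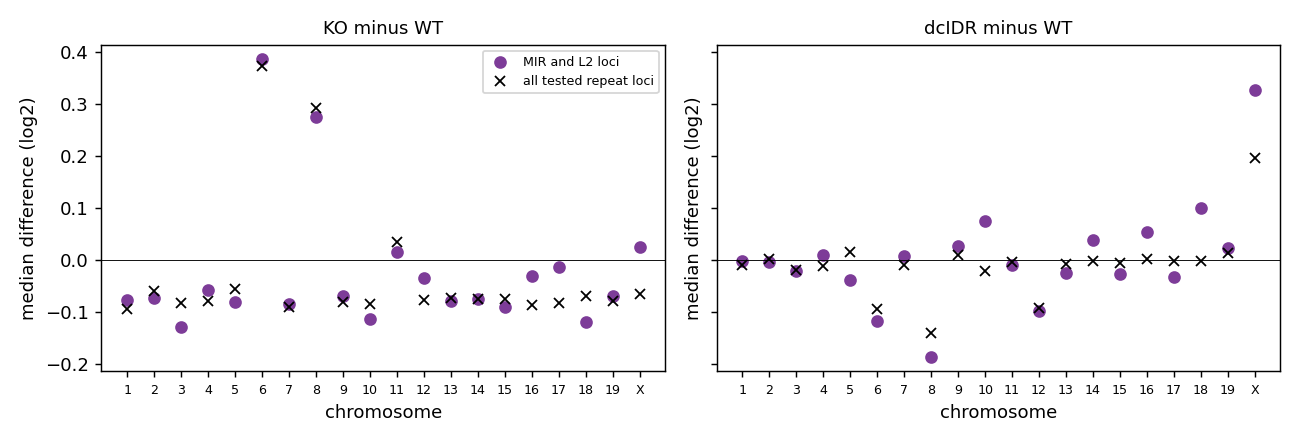
Median log2 difference by chromosome for MIR and L2 loci (circles) and all tested repeat loci (crosses), KO minus WT and dcIDR minus WT. Chromosomes 6 and 8 stand at 0.39 and 0.28 in KO minus WT and chromosome X at 0.33 in dcIDR minus WT, for members and for all loci in the same direction.

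With labelling time, 647 members rose and 363 fell relative to the median locus (limma, adjusted p under 0.05), 26.8% of those tested, against 27.5% of all repeat loci (17.3% higher and 10.2% lower). The median slope was 0.032 per doubling of minutes for members and for all loci. MIR loci split into 404 rising and 165 falling, and L2 loci into 243 and 198. On the spike-in scale, where the median of all loci had a slope of 0.78, 3725 of the 3771 members rose and none fell, against 98.6% and 0.0271% of all loci. A fall is thus a smaller gain than that of the typical locus.

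The steepest gain by the naming rule was at the MIR locus chr5:38694045-38694135, with a slope of 0.80 ± 0.11 (SE, limma adjusted p = 7.54e-06). In KO libraries it had 1.21 and 3.08 RPM at 10 min, against 3.03 and 5.17 at 60 min. dcIDR libraries had 0.466 and 3.01 at the first time and 6.70 and 6.85 at the last, and WT libraries 1.75 and 0.904, then 4.86 and 4.75. All 3 genotypes were higher at 40 min than at 20 min. The L2 locus chrX:20820801-20820978 and the MIR locus chr5:73466318-73466463 followed with 0.79 and 0.77 (limma adjusted p = 2.89e-05 and 5.78e-09). At 10 min the first of these 3 loci had 17 and 18 reads in KO, 2 and 11 in dcIDR and 21 and 4 in WT libraries. The second had 54 and 25, 8 and 6, and 29 and 0, and the third 30 and 12, 2 and 2, and 25 and 3. The size of a slope that starts near 0 reads depends on the 1 added to each level.

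The lowest slopes by the naming rule were at the L2 loci chr5:106029099-106029298 (-0.51), chr11:97111225-97111275 (-0.45) and chr4:149386242-149386411 (-0.45). Their limma adjusted p was 7.35e-08 to 5.93e-06. On the spike-in scale these slopes were 0.24, 0.29 and 0.29. The surroundings had slopes of -0.19, -0.09 and -0.42. Over all members with a measured neighbourhood, slopes of member and surroundings had r = 0.64 across loci, and 606 of 647 rising and 303 of 362 falling members had surroundings of the same sign.

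Few slopes passed as different between genotypes, and the counts depended on single libraries. For KO minus WT no member passed, as no repeat locus did (0.0% of 306027), while 236 members had an unadjusted limma p under 0.05, beside 6.41% of all loci. Without KO library A at 10 min 23 were higher, and without WT library A at 10 min 19 were lower. For dcIDR minus WT 3 members had a higher and 1 a lower slope, against 0.0918% and 0.0382% of all loci, all 4 of them MIR copies. The higher ones were 66 without dcIDR library A, 33 without dcIDR library B and 12 without WT library A at 10 min, and the lower ones 12, 8 and 48 in the same order. None of the 4 passed without the 10 min libraries.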

How the data were processed

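EU-labelled RNA of 24 libraries was measured by sequencing, 2 for each of 3 genotypes and 4 labelling times. Per the labels' protocols, the EU RNA was pulled down by a click reaction and a stranded total RNA kit (SMARTer, version 2) was used for the libraries. The submitters' processing notes name HISAT2, SAMtools, Picard and GRCm39. The sources used here give neither versions nor the counter, its strand setting or the repeat annotation. The authors deposited log2 ratios, for 56941 genes and 4929385 repeat loci, of each genotype at 20, 40 or 60 min to its 10 min libraries, scaled to spike-in reads with both replicates combined, per the file headers and values. Columns marked ki were taken as dcIDR, the remaining genotype. All value columns were used.

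Each ratio equals, with a constant of 40000 and 1 added, a ratio of whole reads divided by spike-in reads, and solving for whole numbers returned each group's scaled sum for every locus and gene. The split into whole reads of both libraries was unclear for 155 repeat loci and 2825 genes, which got the group's sum shared out by the median ratio and so no spread of their own. Of the members, 9 had several possible splits, and none was unclear. The values do not show which library carries which replicate number, so A is the library with more spike-in reads. Loci with 2 reads were 0.811 to 1.34 times as many as loci with 1 in each library, a pattern that counting both mates of a pair would give, in which case the counting error is larger than the reads imply.

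Levels are reads scaled to 11714 spike-in reads. limma 3.58.1 in R 4.3.3 (trend and robust) was fitted to log2(level + 1) of loci whose mean level reached 10 and that were above 0 in at least 6 libraries, with 12 group coefficients and Benjamini-Hochberg adjustment over 306027 loci at 0.05, and was tested on simulated data. Totals were tested by exact permutation of genotypes within labelling time (1296 arrangements), and trends by permuting times within genotype. Alternatives were the spike-in scale, quantile normalization, a pseudocount of 0.5 or 5, a minimum level of 2 or 50, and leaving out single libraries, the 10 min libraries, 5 chromosomes or the 100 most-read members.

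Loci were named by a rule: the 5 most-read of each family, then, among called members with a level of at least 50 and 1 sign at all 4 times, the 5 highest and lowest per genotype comparison, at most 1 per 100 kb, and the 3 highest and lowest slopes. The members, lists and tests were chosen with earlier results of these data known. Coordinates are those of the table, 1-based. The gene annotation at hand is of another build, so host genes, exons and introns, and the sequences of the copies are not analysed here.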

Additional observations from a re-analysis of the deposited data

Results flagged for a closer look

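MIR and L2 reads per spike-in read in dcIDR cells lay on opposite sides of the others at different labelling times. The dcIDR minus WT difference was 0.80 on the log2 scale at 20 min, where both dcIDR libraries were above both WT libraries, and -0.67 at 10 min, where both were below. The dcIDR minus KO difference was 0.52 at 20 min and 0.46 at 40 min, with both dcIDR libraries above, and -1.40 at 10 min, with both below. These differences between times were not tested. The dcIDR libraries at 10 min had the fewest repeat reads, 4289454 and 3654850, close to the 4426747 of WT library B at 10 min, and the part of depth in the result was not tested.

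The share of repeat reads on MIR and L2 copies was higher in both KO than in both WT libraries at 60 min, by 0.036 on the log2 scale, and lower in both at 20 min, by -0.014. That difference was not tested.

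At 4 MIR loci the slope with labelling time differed between dcIDR and WT by limma's interaction contrast. At chr6:86524462-86524576 it was 0.82 per doubling of minutes (limma adjusted p = 0.00862). dcIDR libraries had 1 and 2 reads at 10 min and 65 and 69 at 20 min, against 30 and 19 and then 68 and 44 in WT libraries, so the groups differed at 10 min and overlapped at 20 min. At chr13:55704090-55704319 it was 1.35 (limma adjusted p = 0.0136), with 0 and 0 reads in dcIDR libraries at 10 min and 39 and 36 at 20 min, against 43 and 9 and then 15 and 26 in WT libraries. At chr11:54330543-54330621 it was 1.17 (limma adjusted p = 0.0290), with 0 and 0 and then 45 and 26 reads in dcIDR libraries, against 11 and 7 and then 14 and 11 in WT libraries. A fitted slope that starts from 0 reads depends on the pseudocount and is no bound. The authors' deposited table lists log2 ratios of 7.999 and 7.81 at 20 min for dcIDR at these last loci, again against 0 reads.

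At chr5:64966935-64966994 the dcIDR minus WT slope was -1.40 (limma adjusted p = 0.0243). dcIDR libraries had 4 and 7 reads at 10 min and 6 and 5 at 60 min, against 5 and 2 and then 21 and 28 in WT libraries. The counts are low in every library of this locus.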

How the results depend on the processing

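No paired analysis was possible because the recovered libraries carry no replicate number. On the spike-in scale the members called higher and lower were 318 and 29 in KO minus WT, 50 and 15 in dcIDR minus WT, 108 and 334 in dcIDR minus KO and 3725 and 0 for the slope, and 14 and 0 for the slope difference of dcIDR and WT. There the falling slopes of the L2 loci chr5:106029099-106029298, chr11:97111225-97111275 and chr4:149386242-149386411 were 0.24, 0.29 and 0.29. With a level of at least 50, which tests fewer loci, higher and lower members were 62 and 47 in KO minus WT, 39 and 39 in dcIDR minus WT, 100 and 91 in dcIDR minus KO and 192 and 119 for the slope. With a level of at least 2 the slope gave 1109 and 546. Without chromosomes 4, 6, 8, 11 and X they were 31 and 68, 24 and 32, and 145 and 123 in the same order, with 207 falling slopes, and 1 higher slope difference. A pseudocount of 5 gave 169 higher members in KO minus WT and 92 in dcIDR minus WT, where quantile normalization gave 90. A pseudocount of 0.5 gave 6 higher slope differences. Without the 10 min libraries dcIDR minus WT had 111 higher members, and the slope difference 0 higher and 0 lower. Among these alternatives, shares of all loci called are given only for genotype differences and slopes on the spike-in scale. The other counts cannot be set against a background. The causes were not tested.

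Among totals, leaving out the 10 min libraries gave dcIDR minus KO of 0.26 per spike-in read, a MIR to L2 ratio of -0.011 for KO minus WT a trend of the share of -0.034 and a trend of the ratio of 0.024, which no longer passed. The ratio was -0.0015 for KO minus WT without the 5 chromosomes, and the trend of the share -0.00027 without the 100 most-read members. None of these differences between genotypes passed.

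Leaving out single libraries gave these ranges. Per spike-in read they were 0.24 to 0.41 for KO minus WT, 0.079 to 0.26 for dcIDR minus WT and -0.24 to -0.068 for dcIDR minus KO. For the share they were 0.012 to 0.027, 0.016 to 0.039 and -0.0031 to 0.020, and for the MIR to L2 ratio -0.010 to 0.033, 0.0041 to 0.029 and -0.016 to 0.027. The trend of the share ran from -0.0033 to 0.011 that per gene-table read from -0.126 to -0.098, and that of the MIR to L2 ratio, added after the data were seen, from 0.022 to 0.038. Higher and lower members ran from 66 to 152 and 99 to 195 in KO minus WT, 35 to 104 and 51 to 145 in dcIDR minus WT, 224 to 352 and 245 to 356 in dcIDR minus KO, and 533 to 690 and 303 to 404 for the slope. Slope differences ran from 0 to 23 and 0 to 19 for KO minus WT and from 1 to 66 and 0 to 48 for dcIDR minus WT. Higher members in KO minus WT were 66 without KO library B and 68 without WT library A at 60 min. Higher members in dcIDR minus WT were 104 without WT library A at 10 min, and 35 to 39 without dcIDR B at 20 min, dcIDR B at 40 min, dcIDR A at 60 min, WT A at 40 min or WT A at 60 min. Lower members were 145 without dcIDR A at 10 min, and 51 to 62 without either dcIDR library at 40 min, dcIDR B at 60 min, WT B at 40 min or either WT library at 60 min.

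Of 36 named results, 28 kept direction and call under all their alternatives. Of 1137 values 7 no longer passed and 3 changed sign. The alternative without exonic loci and the test of position classes were not run, since no annotation of the files' build is at hand. Depth limits the members below the filter, as 3771 of 23841 were tested. The libraries with fewest repeat reads were both dcIDR libraries and WT library B at 10 min. Library A at 10 min held 14007532 repeat reads in KO and 12010197 in WT. The members not tested include the 9419 with 10 reads or fewer.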

Other observations

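MIR reads per L2 read were on average higher at 60 min than at 10 min. Group means at 10, 20, 40 and 60 min were 1.14, 1.14, 1.08 and 1.20 in KO, 1.09, 1.13, 1.16 and 1.18 in dcIDR and 1.08, 1.14, 1.14 and 1.15 in WT cells, so KO was lowest at 40 min. The slope was 0.029 on the log2 scale per doubling of minutes, with 0.011 in KO, 0.042 in dcIDR and 0.035 in WT (permutation of times within genotype, p = 0.0270, adjusted over 3 trends 0.0405). This test was added after the data were seen. Leaving out single libraries gave slopes of 0.022 to 0.038, and the trend no longer passed without KO library A at 10 min (0.023), KO A at 60 min (0.027), KO B at 60 min (0.022) or dcIDR B at 10 min (0.025). Without all 10 min libraries it was 0.024 (permutation p = 0.282).

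Among other families the share of repeat reads had slopes from -0.013 for L1 to 0.046 for TcMar-Tigger per doubling, with 0.019 for MIR and -0.0097 for L2. The largest genotype difference of a family's share among those listed was in ERVK, -0.096 in KO minus WT, against 0.024 for MIR and 0.013 for L2. These family values are descriptions without a test.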
